A study of Drepana arcuata with 6 samples.

Results

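The isoforms of 2 genes were followed in the larval transcriptome of the masked birch caterpillar, Drepana arcuata: a juvenile hormone esterase-like Trinity gene (TRINITY_DN21660_c3_g1) and a vitellogenin-related Trinity gene (TRINITY_DN14655_c2_g1). A Trinity gene is a cluster of assembled transcripts that share sequence, and its members are called isoforms. Both genes were chosen by their identifiers, since the study had named an isoform of each, and all of their isoforms were taken. The 2 genes hold 20 of the 231348 transcripts of the assembly, 14 in the juvenile hormone esterase-like gene and 6 in the vitellogenin-related gene. The 2 are among 116079 Trinity genes.

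The libraries were made from whole larvae reared on paper birch, all from 1 wild-caught female. The 3 late instar libraries were pools of 5 larvae of instars IV and V, which live alone in silk leaf shelters. The 3 early instar libraries were pools of 20 larvae of instars I and II, which live in groups. Replicate pools therefore measured variation within 1 brood, and both the larval age and the number of larvae in a pool differed between the stages, so that their parts in a difference cannot be told apart. A whole-body library also cannot tell fewer cells of a type from less RNA per cell.

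Juvenile hormone is the lipid hormone that keeps a moth larva larval at each moult. Juvenile hormone esterase hydrolyses its methyl ester to the acid and so helps to clear it from the haemolymph, and in well studied moths such as Manduca sexta its activity is known for its rise in the final larval instar. Vitellogenin is the yolk precursor that the fat body secretes and that developing eggs take up through the vitellogenin receptor. In honeybee workers it is also known, together with juvenile hormone, for its part in the change of tasks with age. The study listed it among genes tied to social behaviour in other invertebrates. The transcript it gave for this entry missed its limit on the false discovery rate and was not counted as differentially expressed.

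The study named isoform i1 of the juvenile hormone esterase-like gene from its closest protein in another species. For the vitellogenin-related gene its table gives vitellogenin and its receptors together, and so does not say which of them the contigs resemble. The isoforms of this gene were 288 to 707 bp long, while whole vitellogenin and receptor messengers are known to be several times that long. The names of the remaining isoforms rest on their place in the same Trinity gene. The deposited tables carry no gene names, so the whole-body label was not checked against tissue markers.

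The libraries held 15109224 to 35571272 expected counts in late instars and 11177800 to 46307057 in early instars. An expected count is the number of fragments that RSEM assigned to a transcript, with a fragment that maps to several isoforms divided between them. On the log2(CPM + 1) of gene sums, where CPM is the TMM-normalized count relative to library size, on the usual CPM scale, late replicate 2 stood apart somewhat from the other late libraries. It correlated at 0.937 with late replicate 1 and 0.955 with late replicate 3, which correlated at 0.983 with each other, while early libraries correlated at 0.976 to 0.983. These are correlations across genes, which are not independent replicates. Of all tested Trinity genes, 8.82% were called between the stages by edgeR's quasi-likelihood test, 4.87% higher in late and 3.96% higher in early instars. Called genes had a Benjamini-Hochberg adjusted p no larger than 0.001 and differed at least by 2 on the log2 scale, in either direction. All fold changes are late minus early, so that a positive value is higher in late instars.

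The sum over the juvenile hormone esterase-like gene did not differ between the stages beyond the spread of the libraries, while its leading isoform was a different one in each stage. The gene had 42.49, 77.21 and 74.75 TPM in late replicates 1, 2 and 3, against 65.9, 90.23 and 88.64 TPM in early replicates 1, 2 and 3. TPM is the length-corrected share of a transcript in its library. The ranges overlapped, with late replicate 1 the lowest library and the other late libraries between the lowest and the highest early one. The mean was 64.8 ± 19.4 TPM in late and 81.6 ± 13.6 TPM in early instars (SD, n = 3 each), and an exact two-sided permutation test gave p = 0.3, where 3 against 3 cannot go below 0.1. On counts, the sum was 271 ± 87.8 CPM in late and 417 ± 89.6 CPM in early instars, with a log2 fold change of -0.62 ± 0.29 (SE; adjusted p = 0.15, edgeR quasi-likelihood). The gene was not called, and without late replicate 2 its fold change was -0.79 (adjusted p = 0.0767, in a range of 0.0341 to 0.339 over its 14 alternatives, edgeR and DESeq2). It was abundant in both stages, with a mean TPM above that of 93.5% of the 22132 tested Trinity genes in late and 94.8% in early instars.

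**Figure D1:**
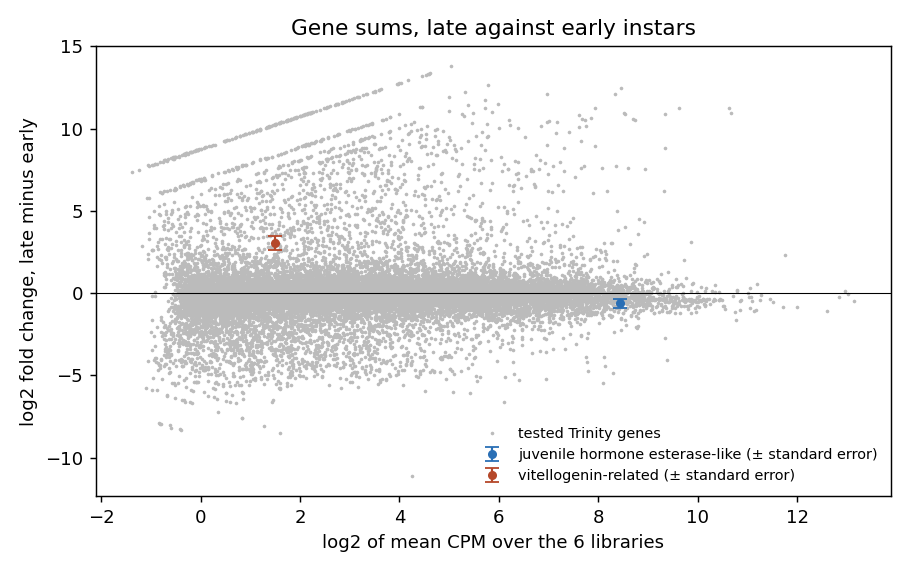
Log2 fold change of gene sums, late minus early (vertical axis), against the log2 of the mean CPM over the 6 libraries (horizontal axis) for all 22132 tested Trinity genes (grey points), with the 2 genes marked and bars for their standard errors. The juvenile hormone esterase-like gene lies among abundant genes at -0.62, and the vitellogenin-related gene lies among weaker genes at 3.04.

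Isoform i1 (TRINITY_DN21660_c3_g1_i1, 1630 bp) was the leading isoform in all early libraries and had no counts in any late library. It had 0, 0 and 0 expected counts in late replicates 1, 2 and 3, against 9008.28, 2727.72 and 5732.47 in early replicates 1, 2 and 3. In TPM this was 0 in each late library, against 36.25, 47.34 and 44.01 in the early libraries. Its share of the gene's TPM, which RSEM gives as isoform percent, was 0% in late instars and 52.4% ± 2.69 in early instars (SD, n = 3 each). Its mean early CPM was 6069-fold a floor of 3 counts over the 3 late libraries. This takes the early mean as measured and covers counting error in the late libraries only. The study listed this isoform among its largest changes on these same libraries, so its difference is given as a description with no test. Among the 52912 tested transcripts, 627 (1.18%) had 0 counts in every late library. Of these, i1 had the highest mean early level, with 233 CPM, and the next had 50.6 CPM.

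In late instars isoform i3 (TRINITY_DN21660_c3_g1_i3, 1644 bp, 14 bp longer than i1) led in every library. It had 29.14, 37.73 and 39.32 TPM in late replicates 1, 2 and 3, against 15.07, 17.1 and 27.42 TPM in early replicates 1, 2 and 3. The groups did not overlap in TPM. They did in CPM, with 130, 192 and 192 CPM in late replicates, against 81.6, 92.3 and 158 CPM in early replicates. The log2 fold change of i3 was 0.63 ± 0.31 (SE; adjusted p = 0.285, edgeR quasi-likelihood), which missed the threshold. Its share of the gene was 68.59%, 48.87% and 52.6% in late replicates 1, 2 and 3, against 22.87%, 18.96% and 30.93% in early replicates 1, 2 and 3, where it came after i1. With i1 left out of the gene, the share of i3 was 68.6%, 48.9% and 52.6% in late replicates, against 50.8%, 39.9% and 61.4% in early replicates. Among the remaining isoforms the shares of i3 thus overlapped between the stages. RSEM divides the fragments that fit both i1 and i3, and how much of their sequence the isoforms share was not examined here.

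**Figure D2:**
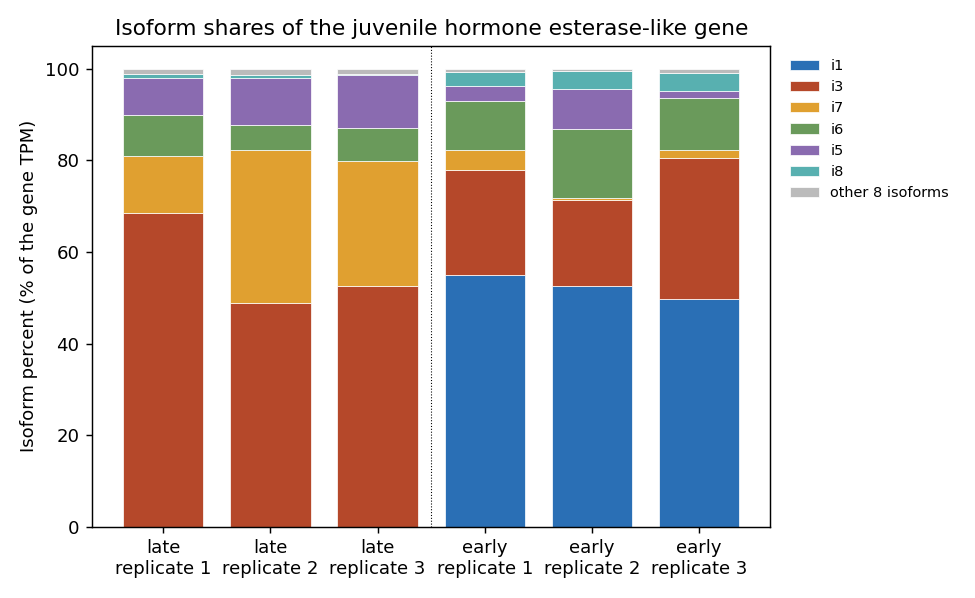
Isoform percent, the share of the gene's TPM (vertical axis, %), of the juvenile hormone esterase-like gene in each library, stacked by isoform, with late libraries to the left of the dotted line and early libraries to its right. Isoform i1 holds 49.6% to 55% of each early library and 0% of each late library, where i3 and i7 hold the larger part.

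Isoform i7 (TRINITY_DN21660_c3_g1_i7, 1151 bp) was the second isoform of late instars. It had 5.24, 25.86 and 20.41 TPM in late replicates 1, 2 and 3, against 2.93, 0.35 and 1.49 TPM in early replicates 1, 2 and 3. Every late library was above every early one, and late replicate 1 was far below the other late libraries. As a share of the gene, i7 held 12.33%, 33.49% and 27.3% in late replicates, against 4.44%, 0.38% and 1.69% in early replicates. With i1 left out, its mean share was 24.4% ± 10.9 in late and 4.68% ± 4.68 in early instars (SD, n = 3 each), and the ranges did not overlap. The log2 fold change of i7 alone was 3.25 ± 0.94 (SE; adjusted p = 0.0921, edgeR quasi-likelihood) and missed the threshold. It passed the limits with no filter, by the exact test and by DESeq2, and over its 13 alternatives the adjusted p ran from 0.000453 to 0.286.

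Isoform use was tested with edgeR's diffSpliceDGE, which asks whether the fold change of an isoform differs from that of its gene and pools the spread over the isoforms of the gene. Across 43775 isoforms of genes with 2 or more tested isoforms, 1.56% passed an adjusted p of 0.05, 0.907% with a larger and 0.656% with a smaller share in late instars. Of 11676 such genes 3.6% passed on the Simes p of the gene. Relative to the gene with i1 in it, i7 had a log2 difference of 3.85 and i3 of 1.22, but these values contain the absence of i1 from late instars and are given as a description. The test was therefore made again with i1 left out of the table, a choice made after seeing the data, and then called 683 of 43774 isoforms (1.56%).

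Without i1, isoform i7 rose relative to the rest of the gene by a log2 difference of 2.66 (adjusted p = 0.0249, edgeR diffSpliceDGE), and isoform i8, described next, fell by 3.92 (adjusted p = 0.0246, edgeR diffSpliceDGE). Neither call was firm. For i7 the adjusted p was 0.151 without late replicate 2, 0.11 without late replicate 3, 0.095 without early replicate 2 and 0.166 without early replicate 3. For i8 it was 0.0554, 0.0791 and 0.162 without late replicate 1, 2 and 3, and 0.0546 and 0.101 without early replicate 1 and 3. With any of the 6 libraries left out, the direction of both held. For i3 the log2 difference without i1 was 0.04 (adjusted p = 1, edgeR diffSpliceDGE), so that no change of its share among the remaining isoforms could be shown.

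**Figure D3:**
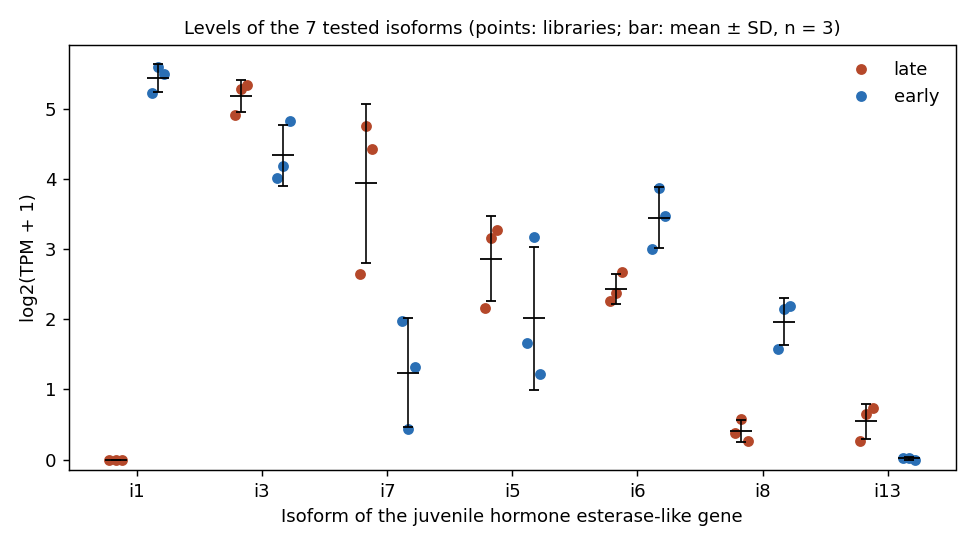
Level of the 7 tested isoforms of the juvenile hormone esterase-like gene as log2(TPM + 1) (vertical axis), late libraries to the left and early libraries to the right of each isoform. Points are libraries and bars are the mean ± SD of 3. The stages overlap here in i5, and in CPM they overlap in i3 as well. Isoform i1 stands at 0 in all late libraries.

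Isoforms i8 and i6 had lower levels in each late library than in any early one. Isoform i8 (TRINITY_DN21660_c3_g1_i8, 1532 bp) had 0.3, 0.5 and 0.2 TPM in late replicates 1, 2 and 3, against 1.98, 3.41 and 3.55 TPM in early replicates 1, 2 and 3. It fell by 3.33 ± 0.48 on the log2 scale (SE; adjusted p = 0.012, edgeR quasi-likelihood), and without late replicate 2 the adjusted p was 0.0132, in a range of 6.66e-09 to 0.0751 over its 13 alternatives (edgeR, DESeq2). Isoform i6 (TRINITY_DN21660_c3_g1_i6, 987 bp) had 3.8, 4.17 and 5.36 TPM in late replicates, against 7.03, 13.6 and 10.08 TPM in early replicates. Its log2 fold change was -1.40 ± 0.32 (SE; adjusted p = 0.0482, edgeR quasi-likelihood), under the limit on the fold. Both isoforms also took a smaller part of what was left without i1. Isoform i8 held 0.54% ± 0.238 of that remainder in late and 7.53% ± 0.736 in early instars, and i6 held 7.17% ± 1.77 in late and 26% ± 4.97 in early instars (SD, n = 3 each). In the test of isoform use without i1, i6 had a log2 difference of -1.99 (adjusted p = 0.23, edgeR diffSpliceDGE) and did not pass, unlike i8. With i1 in the gene, i8 had a log2 difference of -2.73 and missed the threshold (adjusted p = 0.126, edgeR diffSpliceDGE), but passed by limma diffSplice on voom values (-3.86, adjusted p = 0.0303).

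The limits used here for single isoforms were wider, namely an adjusted p of 0.05 beside the fold limit used for genes, since no transcript passed an adjusted p of 0.001 in the quasi-likelihood test. Of all 52912 tested transcripts 7.22% passed these wider limits, 4.2% higher in late and 3.02% higher in early instars, and 12871 had an unadjusted p under 0.05. At the limit of 0.001, edgeR's exact test called 3276 transcripts and DESeq2 4320. Of the 6 tested isoforms of the juvenile hormone esterase-like gene other than i1, i8 and i13 passed the wider limits. Isoform i13 (TRINITY_DN21660_c3_g1_i13, 2069 bp) was a minor form, with expected counts of 41.42, 101.58 and 61.17 in late replicates 1, 2 and 3, against 5.75, 1.31 and 0.64 in early replicates 1, 2 and 3. It rose by a log2 fold change of 4.97 ± 0.80 (SE; adjusted p = 0.0169, edgeR quasi-likelihood) but made up only 0.7% ± 0.213 of the gene in late instars (SD, n = 3). In early libraries i13 had at most 0.13 CPM, so that it passed the filter on low counts through late libraries alone. Its rise and adjusted p are therefore given as a description. The call was lost without late replicate 3 (adjusted p = 0.0512) or early replicate 1 (0.054), 2 (0.0595) or 3 (0.0536), and over its 13 alternatives the adjusted p ran from 6.72e-06 to 0.124 (edgeR, DESeq2). In the test of isoform use without i1, its log2 difference of 4.38 did not pass (adjusted p = 0.228, edgeR diffSpliceDGE).

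Isoform i5 (TRINITY_DN21660_c3_g1_i5, 1594 bp) had 3.48, 7.89 and 8.61 TPM in late replicates 1, 2 and 3, against 2.16, 7.97 and 1.32 TPM in early replicates 1, 2 and 3. Early replicate 2 lay within the late range, and the stages could not be separated (log2 fold change 0.65 ± 0.73, SE; adjusted p = 0.684, edgeR quasi-likelihood). Of the 6 tested isoforms other than i1, 2 lay above and 2 below all early libraries in CPM, where 15.7% and 17.2% of all tested transcripts did so. Of the 2 above, i13 had passed the filter on low counts through its late libraries alone. The order of the tested isoforms by mean TPM was i3, i7, i5, i6, i13, i8 and i1 in late instars and i1, i3, i6, i5, i8, i7 and i13 in early instars. Neighbours in this order whose ranges overlapped in late instars were i7 with i5, i5 with i6, and i13 with i8. In early instars the ranges of i6 with i5, i5 with i8, and i8 with i7 overlapped.

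The other 7 isoforms of the gene were under the filter of 1 CPM in 2 libraries and were not tested. Isoform i10 (1552 bp) had 22.64, 18.88 and 5.61 expected counts in late replicates 1, 2 and 3, against 0, 0 and 0.42 in early replicates 1, 2 and 3, which rounds to 0, and was at least 15.5-fold higher in late instars. Isoform i14, the longest with 2105 bp, had 0 in each late replicate, against 46.05, 5.42 and 25.75 in early replicates, and was at least 22.5-fold lower in late instars. These bounds take the mean CPM of the stage with the isoform as measured, and cover counting error in the other stage only. Isoform i9 was seen in early replicate 3 alone, with 19.47 expected counts. Isoforms i2, i4, i11 and i12 had ranges that overlapped between the stages, with at most 0.37 TPM in any library. Together, i1, i3, i5, i6, i7 and i8 took 98.4% to 98.7% of the gene's counts in late and 99.3% to 99.8% in early libraries.

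The change of the leading isoform from i1 in early to i3 in late instars was set beside the rest of the assembly. In all, 2613 Trinity genes had 2 or more tested isoforms and a mean of at least 10 TPM in both stages. In 288 of them (11%), the isoform with the highest mean TPM in late instars was not the one with the highest mean TPM in early instars. In 1 of them, the juvenile hormone esterase-like gene, the leading early isoform had 0 counts in late instars. A distance between the stages was taken as the share of the gene's mean TPM that would have to pass to other isoforms to turn the mean early shares into the mean late ones. This was 61.3 percentage points in the juvenile hormone esterase-like gene against a median of 5.44 over the 2613 genes, and 4 genes had a larger value. These values are a description and carry no test, since i1 was listed by the study for its difference.

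**Figure D4:**
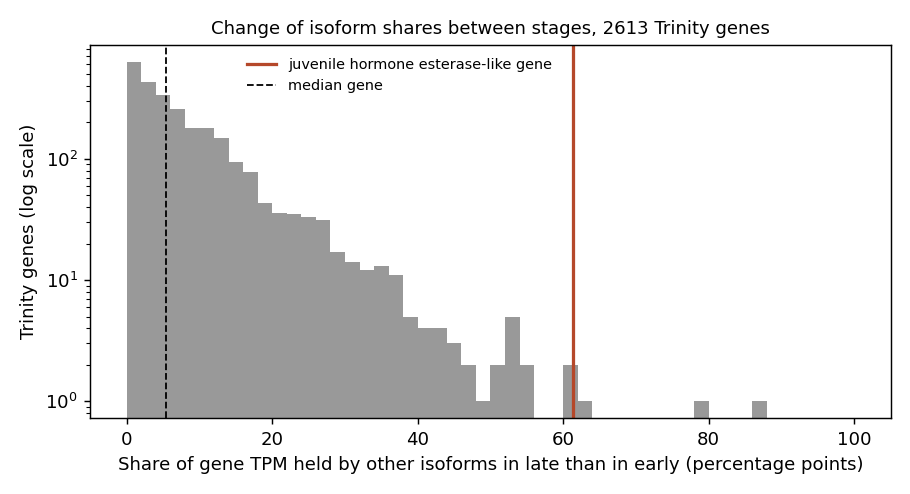
Number of Trinity genes (vertical axis, log scale) by the distance between the stages in mean isoform shares (horizontal axis, percentage points), for 2613 genes. The solid line marks the juvenile hormone esterase-like gene at 61.3 and the dashed line the median at 5.44.

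The vitellogenin-related gene was weakly expressed and higher in late instars. Its sum was 113.91, 192.61 and 76.98 expected counts in late replicates 1, 2 and 3, against 22, 6 and 19 in early replicates 1, 2 and 3. In TPM it had 2.44, 5.09 and 4.07 in late replicates, against 0.29, 0.38 and 0.48 in early replicates. Every late library was above every early one, in CPM as well, where 20.7% of all tested genes were so placed. An exact two-sided permutation test of the TPM gave p = 0.1, the smallest that 3 against 3 allows. The sum rose to 5.06 ± 1.96 CPM in late instars, against 0.62 ± 0.203 CPM in early instars (SD, n = 3 each), with a log2 fold change of 3.04 ± 0.42 (SE; adjusted p = 0.000943, edgeR quasi-likelihood). The mean TPM was above that of 55.5% of the tested Trinity genes in late and 10.6% in early instars.

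This call lay close to the limit. It was lost without late replicate 3 (adjusted p = 0.00308), early replicate 1 (0.00749), early replicate 2 (0.00626) or early replicate 3 (0.00388), and kept without late replicate 2 (log2 fold change 2.73, adjusted p = 0.000827, all edgeR quasi-likelihood). Over its 13 alternatives the adjusted p ran from 8.04e-12 to 0.00749 (edgeR, DESeq2). The early value rests on 47 expected counts over the 3 libraries. With under 1 CPM in each early library, the gene passed the filter on low counts through its late libraries alone. Its fold change and adjusted p are therefore given as a description.

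**Figure D5:**
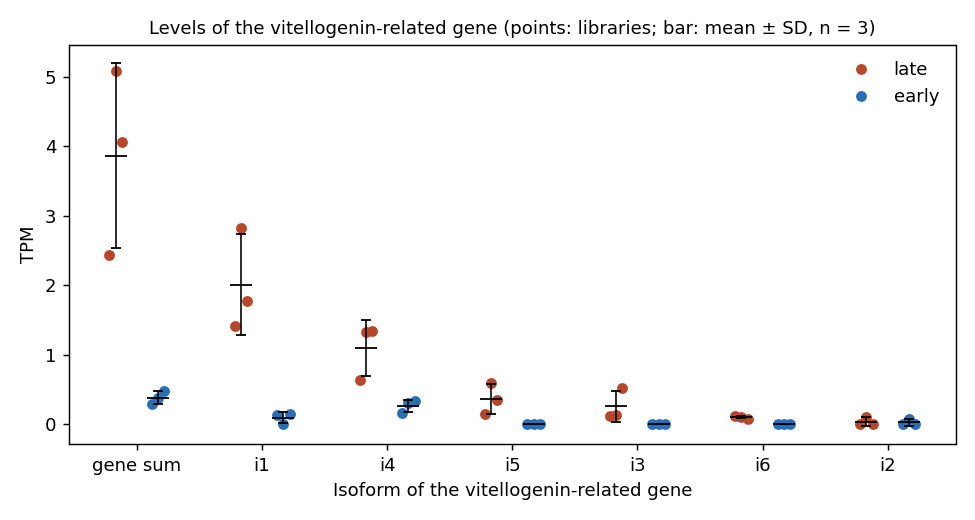
TPM (vertical axis) of the vitellogenin-related gene and its 6 isoforms, late libraries to the left and early libraries to the right of each. Points are libraries and bars are the mean ± SD of 3. The late gene sums of 2.44 to 5.09 TPM all lie above the early ones of 0.29 to 0.48 TPM.

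Isoforms i1 and i4 made up most of the vitellogenin-related gene, and the leading one differed between the stages. Isoform i1 (TRINITY_DN14655_c2_g1_i1, 633 bp) was the one the study listed but did not call. It had 72.99, 121.29 and 40.66 expected counts in late replicates 1, 2 and 3, against 10.45, 0 and 6.31 in early replicates 1, 2 and 3. It rose by a log2 fold change of 4.11 ± 0.94 (SE; adjusted p = 0.0483, edgeR quasi-likelihood), and passed the wider limits only with all libraries or without early replicate 2 among the fits that left a library out. Without late replicate 1, 2 or 3 the adjusted p was 0.0831, 0.0926 and 0.101, and without early replicate 1 or 3 it was 0.132 and 0.0975, in a range of 1.63e-05 to 0.187 over its 13 alternatives (edgeR, DESeq2). Isoform i4 (TRINITY_DN14655_c2_g1_i4, 594 bp) had 29.6, 52.23 and 28.09 expected counts in late replicates, against 11.55, 5 and 12.69 in early replicates. All late libraries were above all early ones in CPM, with a log2 fold change of 1.85 ± 0.67 (SE; adjusted p = 0.162, edgeR quasi-likelihood) that missed the threshold. Both isoforms had under 1 CPM in each early library, and so also passed the filter on low counts through late libraries alone. Their fold changes and adjusted p are likewise a description.

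Of the gene's TPM, i4 held 25.8%, 26.07% and 32.97% in late replicates 1, 2 and 3, against 54.68%, 79.2% and 68.65% in early replicates 1, 2 and 3, with no overlap. Isoform i1 held 58.33%, 55.39% and 43.8% in late replicates, against 45.32%, 0% and 31.35% in early replicates, with late replicate 3 below early replicate 1. Isoform i1 led in 3 of 3 late libraries and i4 in 3 of 3 early libraries. In the test of isoform use neither i1 (log2 difference 1.16) nor i4 (log2 difference -1.11) passed, both with an adjusted p of 1 (edgeR diffSpliceDGE). At these counts a change of shares could not be shown.

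The other isoforms of this gene were not tested. Isoform i5 (331 bp) had 2.75, 8.79 and 2.87 expected counts in late replicates 1, 2 and 3, against 0 in each early replicate. Isoform i6, the longest with 707 bp, had 6.89, 5.56 and 2.11 in late replicates against 0 in each early replicate. Isoform i3 (288 bp) had 1.68, 1.43 and 3.25 in late replicates against 0 in each early replicate. These 3 isoforms were seen in late instars alone, and the early libraries together allow up to 0.0375 CPM of each on a floor of 3 counts. Their mean late CPM was 5.5-fold, 4.89-fold and 2.63-fold that floor for i5, i6 and i3. These folds take the late means as measured, and counting error in the few late counts is not covered. Isoform i2 (492 bp) had 3.31 expected counts in late replicate 2, against 1 in early replicate 2, and 0 elsewhere.

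Likeness of pattern was measured as Pearson's r of log2(CPM + 1) over the 6 libraries, as a description. For the juvenile hormone esterase-like gene sum, 86 of 22131 other tested genes (0.389%) reached an r of 0.95, led by TRINITY_DN16682_c0_g2 (r = 0.995) and TRINITY_DN19619_c2_g5 (r = 0.993). For the vitellogenin-related gene, 432 (1.95%) did, led by TRINITY_DN15264_c4_g1 and TRINITY_DN15630_c8_g1 (r = 0.997 and 0.997). These values of r take in the difference between the stages as well as the spread within them. The libraries also differ in depth, and its part in r was not tested. None of the 4 genes has a name in the sources used here. No list of further juvenile hormone or vitellogenin pathway genes could be drawn up, since the annotation of the assembly was not used here and names were at hand only for the transcripts in the study's tables. Of the other 10 Trinity genes in its table of social genes, 1 was called higher in late and 2 higher in early instars, beside 4.87% and 3.96% of all tested genes, with a median log2 fold change of -1.17 against -0.0027 over all tested genes. Of the other 15 in its table of large changes, 4 were called higher in late and 1 higher in early instars, with a median of 1.23. The table of large changes was drawn up by the study on these libraries. The social genes were taken from work on other species, but the transcript listed for each came from the assembly of these same libraries. Neither table is therefore independent evidence.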

How the data were processed

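Reads of 150 bp in pairs were trimmed by the authors with Trimmomatic 0.36 and removed under 50 bp, and all libraries were assembled together with Trinity. The authors deposited RSEM expected counts per transcript, without normalization, beside TPM, FPKM and isoform percent computed within each library. The sources used here give no version of RSEM and no aligner. Isoforms that share sequence share fragments, so their counts are estimates. FPKM entered only as an alternative to TPM.

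Expected counts, rounded to integers, were tested with edgeR 4.0.16 (R 4.3.3): TMM, more than 1 CPM in at least 2 of 6 libraries, estimateDisp, glmQLFit and glmQLFTest, with stage as the only term. Gene sums and transcripts were fitted separately over the whole tables. Isoform use was tested with diffSpliceDGE. Each standard error (SE) is the log2 fold change divided by the square root of F. Fold bounds set the mean CPM of 1 stage against 3 counts over the other, and leave counting error in that mean uncovered. A precision of 1 CPM rests on 11.2 to 46.3 counts per library. The alternatives were RLE or no composition factors, no filter, CPM above 1 in 3 libraries, edgeR's exact test, DESeq2 1.42.0, limma 3.58.1 (voom and diffSplice), other thresholds, a replicate block and each library left out. The members, lists and tests were chosen with earlier results of these data known. The limit of 0.05 for isoforms, the sum and the test of isoform use without i1 and the distance of shares were chosen after seeing the data. By the naming rule the text gives every isoform of the 2 genes, the 2 genes most like each, and counts over the study's tables. Replicates come from separate pools. The closest pair of libraries within a stage had a chi-square of 26.8 per degree of freedom, so none was entered more than once.

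On simulated counts, 200 of 200 genes changed by 3 on the log2 scale were recovered at an adjusted p of 0.05, with 11 calls among the 21213 unchanged genes. Recovery was not counted at the stricter limit on the adjusted p used to call genes. The genes and isoforms to change were drawn from the more abundant ones alone, above a cut on their mean CPM. Recovery therefore cannot speak for weak isoforms or for genes under that cut, such as the vitellogenin-related gene. It was also not split by expression level. Of 168 isoforms changed by 6 on the log2 scale, diffSpliceDGE recovered 67, with 5 calls in unchanged genes. That test thus misses many changes.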

Additional observations from a re-analysis of the deposited data

How the results depend on the processing

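The number of Trinity genes called, 1953, was 3828 with no filter, 3097 by the exact test, 2936 by DESeq2, 3127 at an adjusted p of 0.05, and 1026 to 2487 with a library left out. The number of transcripts called was 0 by the quasi-likelihood test, also with any library left out, but 1892 with no filter, 3276 by the exact test, 4320 by DESeq2 and 3818 at an adjusted p of 0.05. Isoform use was called in 684 isoforms, in 161 at an adjusted p of 0.001 with a log2 difference of 2, in 454 with the replicate number as a block, and in 449 to 861 with a library left out. The causes of these shifts were not tested.

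The juvenile hormone esterase-like gene sum stayed uncalled under all 14 alternatives, between -0.79 and -0.37 with a library left out. Without i1 it was 0.55 (adjusted p = 0.226, edgeR quasi-likelihood), of the other sign, since i1 enters only the early sum. The vitellogenin-related gene sum lay between 2.73 and 3.36 with a library left out, and 4 of its 13 alternatives lost the call. Its log2 ratio of mean TPM was 3.04 with a pseudocount of 0.1 and 2.49 in FPKM, against 1.81 with a pseudocount of 1.

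With the replicate block, the juvenile hormone esterase-like sum was -0.66 (adjusted p = 0.0341) and the vitellogenin-related sum 2.92 (adjusted p = 0.000871, both edgeR quasi-likelihood). Calls at the wider limits were lost for i8 (0.0751) and i13 (0.124) and for i1 of the vitellogenin-related gene (0.187). The use of i7 and i8 without isoform i1 was no longer called either (0.225 and 0.158). Same-numbered libraries deviated together at r = 0.0938, 0.0217 and 0.212 for replicates 1, 2 and 3, which does not show that the numbers pair the samples. Late replicate 2 correlated best with early replicate 1. Directions of the 2 genes held under the alternatives run, other than the sum without i1 and the use of i3 and i5 without i1. None of these was called. The sum without i1 was fitted on all libraries only, while the use of i3 and i5 took either sign as libraries were left out.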

Other observations

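Trinity names also group genes by the read cluster from which they were assembled. The cluster of the vitellogenin-related gene held TRINITY_DN14655_c2_g2, with 8 transcripts of up to 1092 bp and no name in the sources used here. It had 69.09, 191.08 and 77.65 expected counts in late replicates 1, 2 and 3, against 42.96, 6.41 and 9.06 in early replicates 1, 2 and 3. The difference was 2.83 ± 0.55 on the log2 scale (SE; adjusted p = 0.00566, edgeR quasi-likelihood), above the limit of 0.001 used to call genes. With under 1 CPM in each early library, TRINITY_DN14655_c2_g2 also passed the filter on low counts through its late libraries alone. Its fold change and adjusted p are therefore a description, like those of the vitellogenin-related gene. The cluster also held TRINITY_DN14655_c1_g1, with 10, 14 and 7 expected counts in late replicates, against 24, 2 and 9.99 in early replicates, and TRINITY_DN14655_c1_g2, with 5, 6 and 6 in late replicates, against 22, 2 and 4 in early replicates. Both were under the filter on low counts and their ranges overlapped between the stages. The cluster of the juvenile hormone esterase-like gene held 6 other Trinity genes. Of these, TRINITY_DN21660_c1_g1 alone passed the filter on low counts, with a log2 fold change of -0.72 (adjusted p = 0.3, edgeR quasi-likelihood). It had under 1 CPM in each late library and passed through early libraries alone, so these values are a description. TRINITY_DN21660_c2_g1 had 0, 2 and 1 expected counts in late replicates, against 25, 0 and 8 in early replicates.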
